A study of Mus musculus with 4 samples.

Results

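The genes described here are 7 mouse protease inhibitor genes, namely the Kunitz inhibitors Spint1 and Spint2 and the serpins Serpinb1a, Serpinb6a, Serpinb6b, Serpinb8 and Serpinb9, out of 21889 genes with a deposited value. Spint2 and Serpinb8 were chosen by their deposited levels in B140P and B140H, since they were near 0 in that resistant line and not in its parent, and the other 5 were set beside them as paralogs. The values of B140P and B140H are therefore given as a description. RNA was sequenced from 4 acute myeloid leukaemia cell lines of the inbred mouse strain BXH-2, with 1 library per line. The parental lines B117P and B140P are sensitive to Ara-C (cytarabine), a nucleoside analogue used against this leukaemia that stops DNA synthesis, with labelled IC50 values of about 150 and 110 ng/ml. B117H was derived from B117P and B140H from B140P by exposure to rising Ara-C, and they are highly resistant, with IC50 values of about 160 and 60 µg/ml. Growth was in medium without Ara-C. A parent together with the line derived from it is called a lineage, B117 or B140. The labels do not say whether a line is a single clone, and no value has a replicate within its line.

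Kunitz inhibitors and serpins both block serine proteases, by different means. A Kunitz domain sits in the active site of the protease like a poor substrate and can come off again. A serpin offers a loop that the protease cuts, after which the serpin changes shape and holds the protease in a covalent complex. Spint1 and Spint2 are membrane proteins best known in epithelia, where they restrain matriptase and the activator of hepatocyte growth factor. Serpins of clade B lack a classical secretion signal and act mostly inside the cell, and in myeloid cells they guard the cytosol against proteases that leak from granules.

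The start regions of Spint2 and Serpinb8 are shown because these genes shared a pattern over the 4 lines. The windows are the 250 bases before the start site of each gene in the RefSeq promoter table of build GRCm38.p6, printed 5′ to 3′ on the strand of the gene. Spint2 is at chr7:29281978-29282227 on the minus strand and Serpinb8 at chr1:107589756-107590005 on the plus strand. Capitals mark matches to the 5 searched motifs, on either strand: GGGCGG (Sp1 box), CCAAT for the CCAAT-binding factor, TATAAA for the TATA box, GAGGAAGT (PU.1 site) and TGACTCA (AP-1 site).
Spint2: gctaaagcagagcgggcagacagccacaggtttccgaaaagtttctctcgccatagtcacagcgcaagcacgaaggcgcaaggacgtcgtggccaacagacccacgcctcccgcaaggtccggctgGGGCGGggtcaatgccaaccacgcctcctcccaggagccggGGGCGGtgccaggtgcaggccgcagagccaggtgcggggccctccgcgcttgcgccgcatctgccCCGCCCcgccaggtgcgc
Serpinb8: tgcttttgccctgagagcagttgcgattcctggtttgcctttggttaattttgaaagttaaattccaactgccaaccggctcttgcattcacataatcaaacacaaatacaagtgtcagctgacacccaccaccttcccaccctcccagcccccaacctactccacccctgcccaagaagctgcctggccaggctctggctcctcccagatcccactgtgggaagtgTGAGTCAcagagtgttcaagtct
The windows were unlike in base composition. The Spint2 window held 24 CpG dinucleotides and 69.6% G and C, and 3935 of all 32851 windows held at least as many CpG. The Serpinb8 window held 2 CpG and 52.0% G and C, and 26668 windows held at least as many. Spint2 had 3 Sp1 boxes, beginning 124, 83 and 18 bases before the start, and 32.7% of windows held at least 1. Serpinb8 had a single AP-1 match beginning 23 bases before the start, on the opposite strand, and 4.46% of windows held that motif. No searched motif was common to the pair. Neither window held the CCAAT, TATA or PU.1 motif, which occurred in 33.8%, 12.4% and 2.44% of windows. The paralog Spint1 also had a CpG-rich window, with 26 CpG and 3 Sp1 boxes, although it was the least expressed of the 7 genes. Serpinb6b and Serpinb9 had 3 CpG each, and Serpinb6a had 20 CpG at its upstream start and 2 at its downstream one. Matches are descriptions of the reference letters, and no binding was measured.

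Values are FPKM as deposited, that is fragments per kilobase of transcript, scaled to the mapped fragments of the library. The spacing of low values gave an estimated depth of 19150000 to 24400000 fragments per library, at which 3 fragments on a 2 kb transcript are worth 0.0615 to 0.0783 FPKM. Intervals below are exact 95% Poisson intervals on fragments estimated in this way, and they cover counting error only. Listed coordinates of 6 genes, none of them among the 7, differed between files. The lineages may have been normalized apart from each other, which limits any comparison of levels across them. The 4 listed haematopoietic markers, among them Ptprc (CD45) and Coro1a, were at 1 FPKM or more in every line. All 10 myeloid markers were at 1 FPKM or more in the B117 lines, against 7 in B140P and 6 in B140H. Kit, the stem cell factor receptor, was listed at 0 in both B140 lines, Cd34 was at 0.0432 and 0 FPKM, and the B cell receptor chain Cd79b was at 44.5 and 64.2 FPKM there. The myeloid label of lineage B140 is thus only partly borne out by this marker list.

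Spint2 was high in B140P alone. Its level was 27.2 FPKM in B140P (interval 25.1 to 29.4), 0.173 in B140H (0.0549 to 0.395), 0.168 in B117H (0.0460 to 0.432) and 0.0375 in B117P (0.000937 to 0.206). The parental line B140P stood apart, and the intervals of the other 3 lines overlapped. The low levels correspond to an estimated 5, 4 and 1 fragments, against 630 in B140P. B140H kept 0.636% of the parental FPKM, with an exact Clopper-Pearson 95% interval of 0.202% to 1.46%, or a 157-fold lower level. On the scale of log2(FPKM + 1), the ratio of B140H to B140P was -4.59, the rank 7 from the lowest among the 10066 genes whose mean over the 4 libraries was at least 1 FPKM, called expressed here. In RNA from whole cultures, fewer cells with the transcript and less transcript per cell cannot be told apart. Spint2 lies on chromosome 7 from 30041349 to 30066996 in build mm9, and no other listed gene overlaps it.

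Serpinb8, a clade B serpin whose human counterpart can inhibit the proprotein convertase furin, had the same order of lines. It was at 10.4 FPKM in B140P (interval 9.60 to 11.3), 0.146 in B140H (0.0750 to 0.269) and 0.133 in B117H (0.0588 to 0.268). In B117P it was listed at 0 (interval 0 to 0.0551), where 3 fragments would be worth 0.0448 FPKM. Again B140P alone was high, and B140H and B117H did not differ beyond counting error. B140H kept 1.40% of the parental level (0.716% to 2.60%), a 71.6-fold lower level, and its log2 ratio of -3.32 ranked 14 from the lowest. Serpinb8 lies on chromosome 1 from 109486583 to 109505555 in mm9, apart from Spint2, and none of the 50-base words of Spint2 transcripts and 0.175% of those of Serpinb8 recur in transcripts of another gene.

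**Figure D1:**
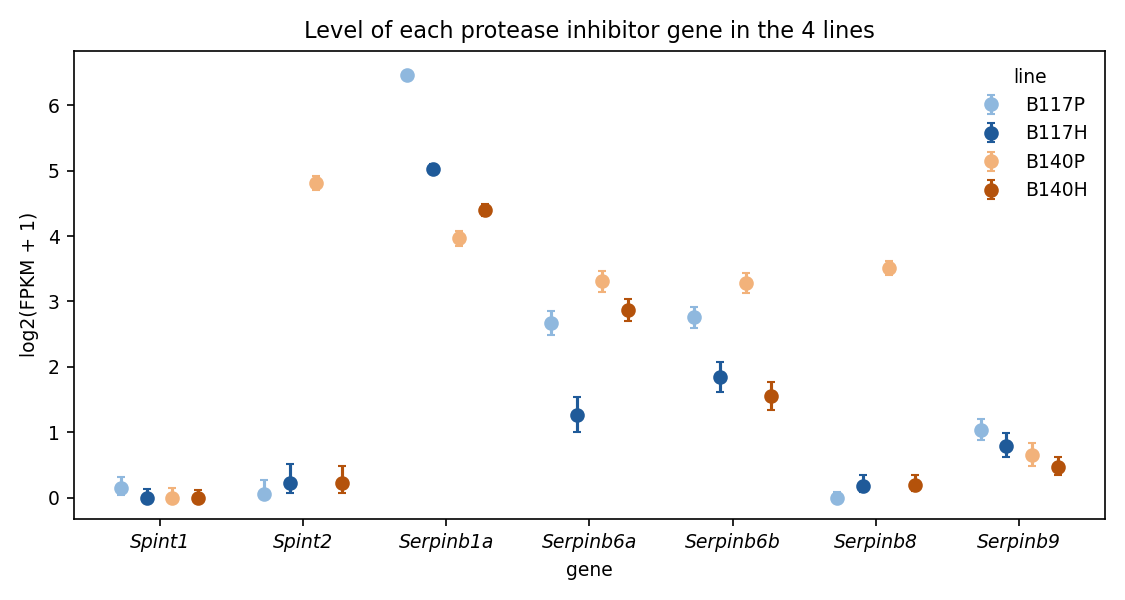
Level of the 7 genes as log2(FPKM + 1) in each of the 4 lines, 1 library each; bars are exact 95% Poisson intervals on estimated fragments and cover counting error only. Spint2 and Serpinb8 are high in B140P alone, at 27.2 and 10.4 FPKM, while Serpinb1a is highest in B117P at 87.2 FPKM.

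Spint1, the closest relative of Spint2 in the set, was near 0 in every line. It was at 0.101 FPKM in B117P, an estimated 4 fragments, and listed at 0 in B117H, B140P and B140H, where 3 fragments would be worth 0.0801, 0.0819 and 0.0643 FPKM. With a mean of 0.0253 FPKM it was not among the expressed genes and entered no comparison.

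Serpinb1a, the mouse inhibitor of neutrophil elastase, proteinase 3 and cathepsin G, was the highest of the 7 genes in 3 of the lines and second to Spint2 in B140P. Its level was 87.2 FPKM in B117P (84.4 to 90.1), 31.6 in B117H (29.8 to 33.5), 20.1 in B140H (18.8 to 21.4) and 14.6 in B140P (13.4 to 15.9). No intervals overlapped, and the B117 lines were above the B140 lines. In lineage B117 it fell, with 36.2% of the parental level left (33.9% to 38.7%) and a log2 ratio of -1.44. In lineage B140 the resistant line was higher, at 138% of the parent (124% to 153%), and the log2 ratio of 0.44 did not pass the 2-fold rule.

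Serpinb6a, an intracellular inhibitor of cathepsin G, was lower in each resistant line than in its parent. It was at 5.37 FPKM in B117P (4.61 to 6.21) and 1.39 in B117H (0.999 to 1.89), and at 8.94 in B140P (7.87 to 10.1) and 6.33 in B140H (5.53 to 7.19). The intervals did not overlap within either lineage, whereas those of B140H and B117P did. The log2 ratios were -1.41 in lineage B117, a fall past 2-fold, and -0.44 in lineage B140, which did not pass, with a mean of -0.93 ± 0.69 (SD, n = 2 lineages). Its listed span overlaps Nqo2, a quinone reductase gene, which was at 11.8, 6.27, 4.93 and 5.99 FPKM in B117P, B117H, B140P and B140H. In addition, 22.0% of the 50-base words of Serpinb6a transcripts recur in those of another annotated gene, 19.9% in 1110046J04Rik, so its level depends on how shared reads were divided.

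Serpinb6b, a relative of Serpinb6a in the same cluster, was also lower in each resistant line. It was at 5.76 FPKM in B117P (5.03 to 6.57), 2.59 in B117H (2.07 to 3.19), 8.70 in B140P (7.71 to 9.76) and 1.93 in B140H (1.53 to 2.40). Both parents were above both resistant lines, whose intervals overlapped. The log2 ratio was -1.73 in lineage B140, a fall that left 22.1% of the parental level (17.1% to 28.5%), and -0.91 in lineage B117, just inside the 2-fold rule, with 45.0% left (34.6% to 57.7%). The mean was -1.32 ± 0.58 (SD, n = 2 lineages). The share of 50-base words common to other genes was 3.07%, mostly with Serpinb6c, which was between 0 and 0.0422 FPKM in the 4 lines.

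Serpinb9, the granzyme B inhibitor of cytotoxic and dendritic cells, was low throughout. It was at 1.05 FPKM in B117P (0.837 to 1.31), 0.731 in B117H (0.545 to 0.974), 0.571 in B140P (0.400 to 0.784) and 0.385 in B140H (0.264 to 0.545). Each of these intervals overlapped that of the next line in the order. The log2 ratios were -0.24 and -0.18, and a mean of 0.684 FPKM kept it out of the expressed genes.

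Of the 7 genes, 5 had a mean of 1 FPKM or more, Spint2 and Serpinb8 through B140P alone. In lineage B117, Serpinb1a and Serpinb6a fell past 2-fold and none of these 5 rose. Of the 10066 expressed genes, 3.21% fell and 1.41% rose there, or 4.62% in all. In lineage B140, Spint2, Serpinb8 and Serpinb6b fell and none rose, where 1.63% of expressed genes fell and 2.31% rose, or 3.94% in all. The values of this lineage chose Spint2 and Serpinb8, so nothing is read from that count. None of the 5 passed the rule in both lineages with the pseudocount of 1. Since only 4.62% and 3.94% of all expressed genes passed in each lineage, nothing is read from that. With a pseudocount of 0.1 the ratios of Serpinb6b were -1.12 in lineage B117 and -2.12 in lineage B140, past 2-fold in both. With 1 library per line, no p-value is attached to any of these differences.

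**Figure D2:**
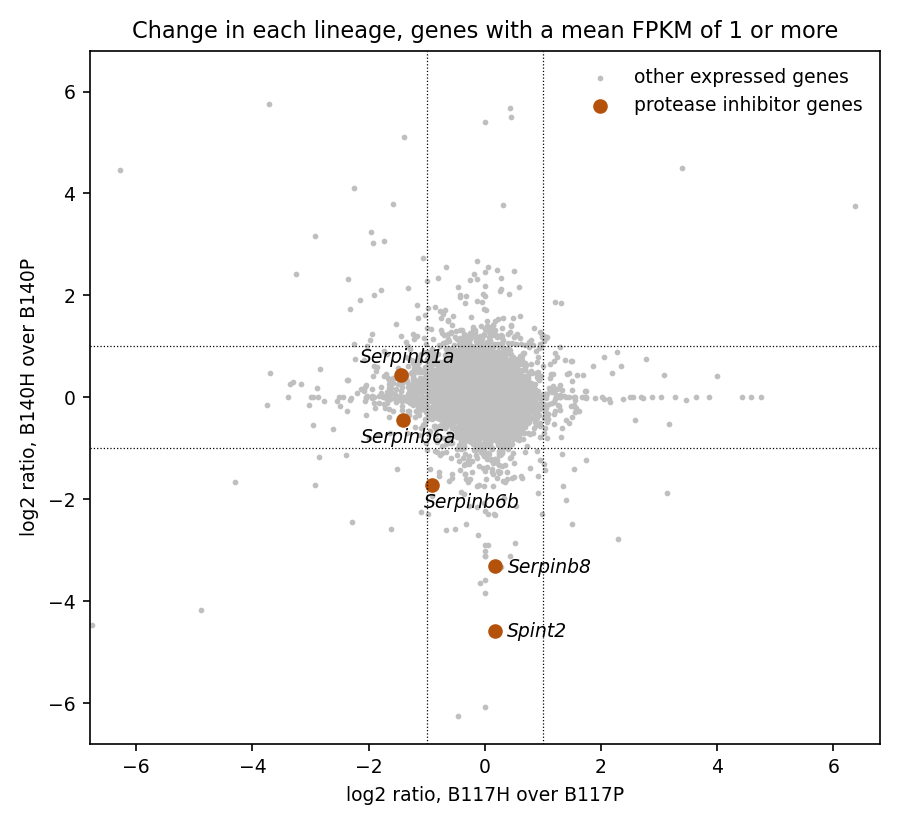
Log2 ratio of FPKM + 1, resistant over parental line, in lineage B117 (x axis) and lineage B140 (y axis) for the 10066 expressed genes; dotted lines mark 2-fold, and 32 genes lie beyond the axes. Spint2 and Serpinb8 lie at -4.59 and -3.32 on the y axis and near 0 on the x axis, and Serpinb1a and Serpinb6a lie past 2-fold on the x axis alone.

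The expressed neighbours of Spint2 did not move with it. Its 10 nearest expressed genes on each side span 1.21 Mb, and none of the 20 passed 2-fold in either lineage. Of all expressed genes, 4.62% passed in lineage B117 and 3.94% in lineage B140, so few of any 20 would pass. Their median log2 ratio in lineage B140 was -0.02, against 0.11 over all expressed genes. Yif1b, which lies 7.9 kb away and takes part in transport between the endoplasmic reticulum and the Golgi, was at 33.5 FPKM in B140P and 40.8 in B140H. Dpf1, 22.0 kb away on the other side, was at 3.41 and 3.75 FPKM. The lowest of the 20 was Zfp940, a zinc finger gene, at -0.72.

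Serpinb8 lies in a stretch with few expressed genes. Its 20 expressed neighbours span 22.4 Mb, and the nearest, Vps4b and Tsn, are 793.3 and 10689.5 kb away. Vps4b, an ATPase of endosomal sorting, was at 34.1 FPKM in B140P and 41.0 in B140H, and Tsn, which encodes translin, at 38.7 and 44.5. The median over the 20 was 0.03 in lineage B140, with 1 rise and 1 fall, where 2.31% of all expressed genes rose and 1.63% fell. The fall was Pam, a peptide-amidating enzyme 9494.4 kb away, from 2.42 to 0.0394 FPKM. The listed genes next to Serpinb8, Serpinb2 and Serpinb10-ps on one side and Cdh7 and Cdh19 on the other, were each listed at 0 in B140P.

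The 4 serpins of chromosome 13, which lie between 32933961 and 34094618 in mm9, had neighbours with lower levels in B117H. Of the 20 nearest expressed genes, 6 fell in lineage B117 and none rose, where 3.21% of all expressed genes fell and 1.41% rose. The median log2 ratio of the 20 was -0.74, against -0.03 over all expressed genes. All 20 were below 0, from Dusp22, a phosphatase, at -1.79 to Sox4, a transcription factor, at -0.15. Serpinb1a and Serpinb6a, at -1.44 and -1.41, were 0.70 and 0.68 below that median, so neither stayed past 2-fold once it was subtracted. Serpinb6b was 0.18 below the median and Serpinb9 was 0.49 above it. The part of the neighbourhood in the falls of Serpinb1a and Serpinb6a was not tested. In lineage B140 the same 20 genes had a median of 0.15, and the fall of Serpinb6b came to -1.88 after that was subtracted.

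**Figure D3:**
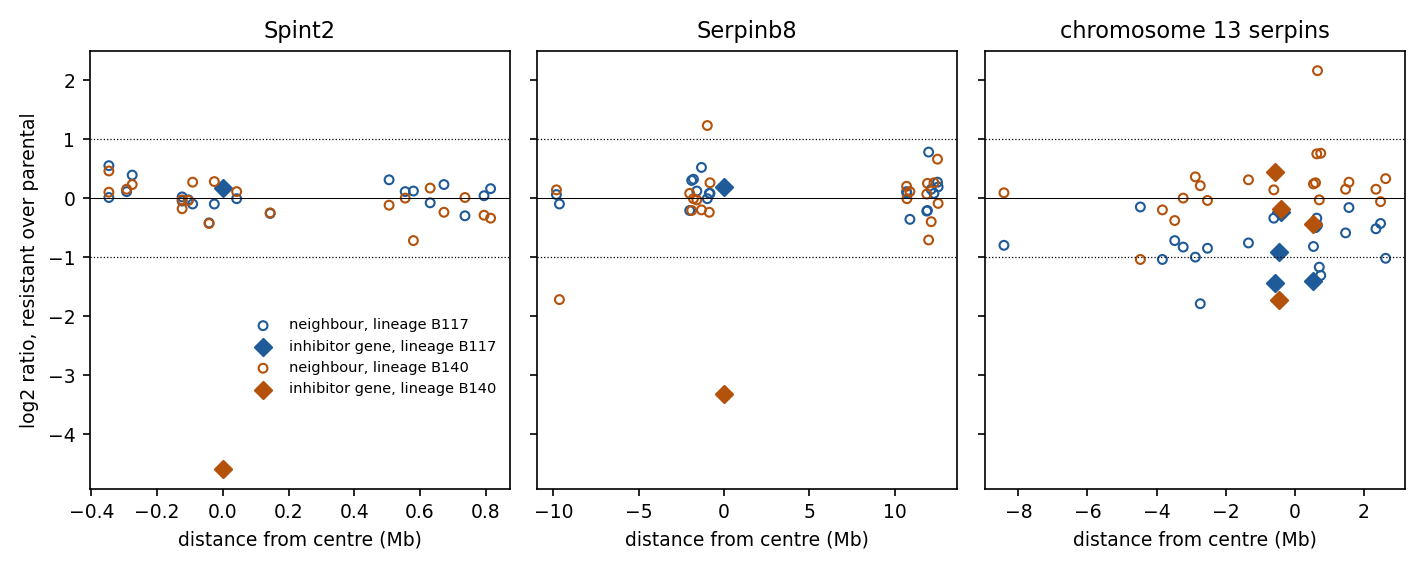
Log2 ratio, resistant over parental line, of the inhibitor genes (filled diamonds) and their 10 nearest expressed neighbours on each side (open circles, with 1 more gene inside the chromosome 13 block), against distance in Mb from the centre of the gene or block; blue is lineage B117, orange lineage B140, dotted lines mark 2-fold. Spint2 and Serpinb8 in lineage B140 are the lowest points of their panels, at -4.59 and -3.32, while around the chromosome 13 serpins the blue circles lie below 0 with a median of -0.74.

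The other serpins were mostly silent. None of the 22 other listed clade B serpins reached a mean of 1 FPKM, 11 were listed at 0 in every line and 21 stayed under 1 FPKM in every line, the exception being Serpinb12 at 1.15 FPKM in B140H. Of 36 serpins of other clades, Serpinf1, which encodes pigment epithelium-derived factor, was the only one with a mean of 1 FPKM or more, at 17.6 FPKM in B117P, 21.2 in B117H, 9.48 in B140P and 7.78 in B140H. It did not pass the 2-fold rule in either lineage. The 5 expressed genes of the set were therefore 5 of the 6 expressed serpin and Spint genes. The set was chosen with earlier results of these data known, so nothing is read from that count.

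Among the other Kunitz domain genes, 4 of 16 listed were expressed and none passed 2-fold in either lineage. Of all expressed genes, 4.62% passed in lineage B117 and 3.94% in lineage B140, so nothing is read from a count over 4 genes. App, the amyloid precursor protein gene, was at 127 FPKM in B117P and 70.5 in B117H, and at 0.0672 and 0.0371 in B140P and B140H. Tfpi, the tissue factor pathway inhibitor, was at 13.5 FPKM in B117P, 6.86 in B117H, 0.0371 in B140P and 0 in B140H. App and Tfpi were thus higher in lineage B117, in which Spint2 was near 0 in both lines. In B140H, however, Spint2 was at 0.173 FPKM, so it was near 0 together with App and Tfpi. Levels are compared here across lineages that may have been normalized apart. Aplp2, a relative of App, was between 3.51 and 5.71 FPKM in all lines. The Kunitz exon of App is spliced in only part of its transcripts, and isoforms were not resolved here.

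St14 encodes matriptase, the membrane protease that Spint1 and Spint2 inhibit. It was at 38.8 FPKM in B140P and 31.8 in B140H, a log2 ratio of -0.28, and at 2.91 and 3.69 FPKM in B117P and B117H. St14 was thus high in both B140 lines, while Spint2 was at 27.2 FPKM in the first and 0.173 in the second. Of the 14 listed genes of this pathway, 3 were expressed. Met, the receptor of hepatocyte growth factor, was the only one past 2-fold, falling from 7.13 to 2.22 FPKM in lineage B117. In that lineage 3.21% of all expressed genes fell. Met was listed at 0 in both B140 lines, and Mst1, a ligand related to hepatocyte growth factor, was at 2.46 FPKM in B117P, 3.45 in B117H, 0.0468 in B140P and 0.0366 in B140H.

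The granule proteases that Serpinb1a inhibits were lower in B117H, as Serpinb1a was. Elane, neutrophil elastase, fell from 81.1 to 14.8 FPKM and Prtn3, proteinase 3, from 488 to 172 FPKM, while Ctsg, cathepsin G, was at 735 and 402 FPKM and did not pass 2-fold. In lineage B140, Elane was at 0.385 and 0.154 FPKM, Prtn3 at 68.1 and 82.0 and Ctsg at 337 and 270. Mcpt8, a basophil protease, fell there from 15.5 to 5.65 FPKM. In all, of 7 expressed proteases on this list, 2 fell and none rose in lineage B117, with a median log2 ratio of -0.70, where 3.21% of expressed genes fell. In lineage B140, 1 of the 7 fell and none rose, with a median of -0.26, where 1.63% of expressed genes fell. The medians over all expressed genes were -0.03 and 0.11. Furin, the target ascribed to Serpinb8, was at 22.2, 22.8, 13.6 and 16.2 FPKM in B117P, B117H, B140P and B140H. Its level in B140H was thus not lower than in B140P.

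Protease inhibitors of other families were also listed. Of 23 listed, 7 were expressed, 1 fell in lineage B117 and none passed the rule in lineage B140, with median log2 ratios of -0.10 and 0.11. Of all expressed genes, 3.21% fell in lineage B117 and 3.94% passed in lineage B140, with medians of -0.03 and 0.11. Nothing is therefore read from counts over 7 genes. The fall was Slpi, the secretory leukocyte protease inhibitor, from 76.2 to 23.1 FPKM, and in lineage B140 it was at 82.2 and 148 FPKM. Cst3, cystatin C, was at 399 FPKM in B140P, 751 in B140H, 278 in B117P and 191 in B117H. Cst7, cystatin F, was at 71.8 FPKM in B140P, 40.9 in B140H, 190 in B117P and 179 in B117H.

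**Figure D4:**
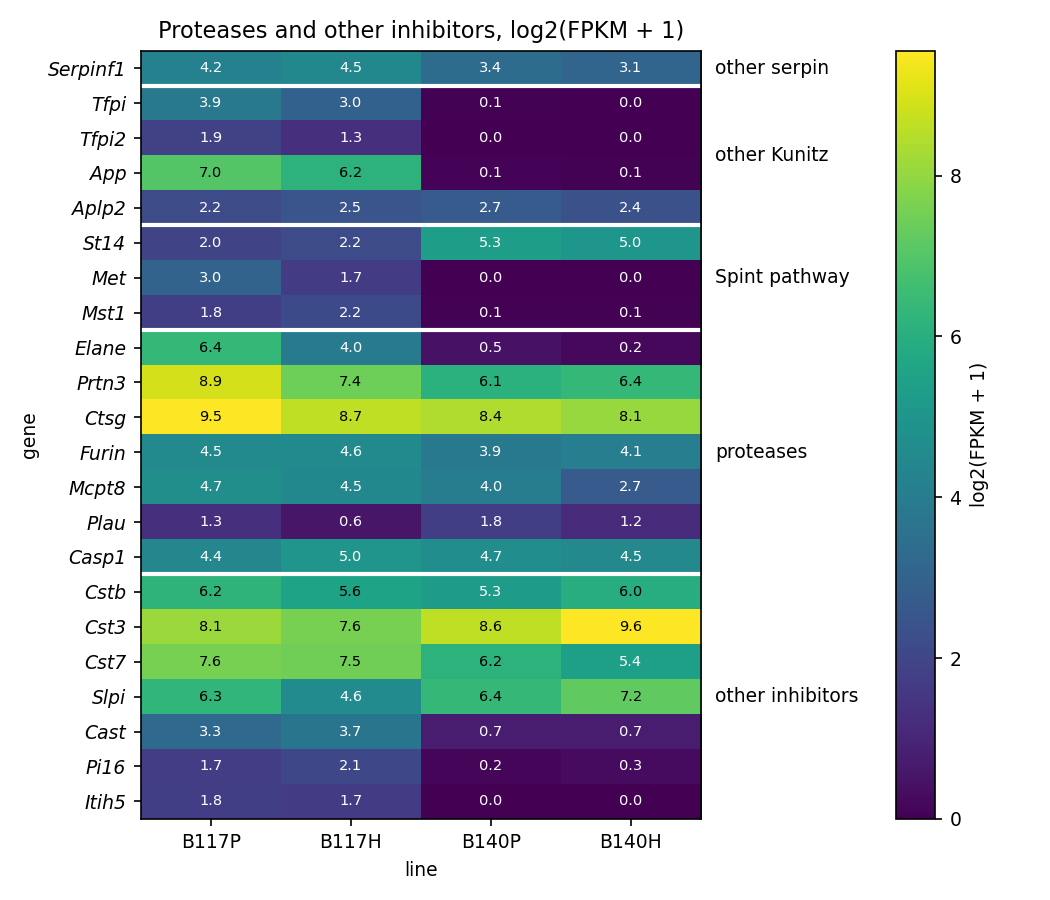
Heat map of log2(FPKM + 1) in the 4 lines for the expressed genes of the lists of other serpins, other Kunitz domain genes, the matriptase pathway, proteases of clade B serpins and other inhibitors; each cell prints its value. St14 is high in both B140 lines (38.8 and 31.8 FPKM) and App in both B117 lines (127 and 70.5 FPKM).

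Small RNA genes and genes with clone names were left out of the search for genes of like pattern. E130012A19Rik, at 18.9 FPKM in B140P and 0.395 in B140H, was among those left out. Of the expressed genes searched, those most like Spint2 over the 4 libraries were Serpinb8, Amd1 and Sfmbt2. Their Euclidean distances were 1.09, 1.24 and 1.84 between log2(FPKM + 1) values centred on each gene's mean. For Serpinb8 the nearest were Amd1, Insm1 and Sfmbt2, at 0.25, 0.77 and 0.80, and Spint2 ranked 5 among the genes searched. Sfmbt2, a Polycomb group gene, was at 5.70 FPKM in B140P, 0.436 in B140H and 0 in both B117 lines. Insm1, a zinc finger transcription factor of neuroendocrine cells, was at 7.06 FPKM in B140P and 0.625 in B140H. Amd1, an enzyme of polyamine synthesis, was at 9.07 and 0.00496 FPKM, but it is listed over the same span as Amd2, and how reads were divided between them was not tested. Over 4 libraries, likeness of this kind mainly says that a gene was high in B140P alone. Spint2 and Serpinb8 were chosen by their levels in B140P and B140H, so their likeness to each other is no finding.

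Epithelial markers were at or near 0 in every line, B140P included. None of 10 epithelial markers, Epcam, Cdh1 and the keratins Krt8, Krt18 and Krt19 among them, reached 1 FPKM in any line, and all 10 were listed at 0 in B140P. Their summed level was between 0 and 0.141 FPKM over the 4 lines. Summed stromal markers were between 0.0203 and 0.159 FPKM. The summed B cell markers were 51.9 FPKM in B140P and 80.5 in B140H, against 2.07 and 0.611 in B117P and B117H.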

How the data were processed

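RNA sequencing of 4 mouse leukaemia cell lines, 1 library each, was used. The authors deposited FPKM per gene for 21889 genes with mm9 coordinates. TopHat2 2.0.4 and Cuffdiff were used, per the submitters' processing notes. The annotation, strand setting and read length are not given in the sources used here, and read counts were not used. Listed starts were taken to count from 0, since this gave the RefSeq gene length for 6285 of 19357 shared symbols, against 434 if they counted from 1, and 1 was added.

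Log2 ratios of resistant over parental line used a pseudocount of 1, which understates the change of low genes. The 2-fold rule was applied to the genes whose mean over the libraries was at least 1 FPKM. No test was run, as every line has a single library. Depth was read from the steps between low FPKM of 735 genes with a single annotated transcript of 3 kb or longer, searched between 10000000 and 30000000 fragments. Searched up to 40000000, B140P alone gave another value, 38520000, which would make its intervals narrower. Fragments of a gene were estimated from its shortest protein-coding GENCODE M21 transcript of at least 1 kb. Promoter windows came from RefSeq (GRCm38.p6), where 6 of the 7 genes matched. Words of 50 bases were compared over GENCODE M21 transcripts.

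The 7 genes and the gene lists were chosen with earlier results of these data known. Named genes were the 7, the nearest and lowest expressed neighbours, up to 4 genes per list past 2-fold, overlapping genes and defining markers. The 3 nearest in pattern were also named, with small RNA genes and clone names left out. Kit, Cd34, Cd79b, Furin, App, Tfpi, Aplp2, St14, Mst1, Ctsg, Cst3, Cst7, Serpinf1 and Serpinb12 were named for their role or after their values were seen. The calling rule and the depth estimate were tested on simulated data. Alternatives were rules of 4-fold and 1.5-fold, a pseudocount of 0.1, a minimum mean of 5 FPKM or none, median-centred ratios, TPM without small RNA genes, and 5 or 25 neighbours on each side. Subtraction of the neighbours' median was added after the data were seen. The work was done in Python 3.11.15 with scipy 1.17.1, pandas 2.3.3, numpy 2.4.6 and matplotlib 3.10.9.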

Additional observations from a re-analysis of the deposited data

Results flagged for a closer look

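For 3 of the genes the log2 ratio of resistant over parental line had opposite signs in the lineages and was past 2-fold in one of them. Spint2 and Serpinb8 were chosen by their fall in lineage B140, so nothing is read from this count. The log2 ratio of Spint2 was 0.17 for lineage B117 and -4.59 for lineage B140, and that of Serpinb8 was 0.18 and -3.32. In lineage B117 these ratios rest on at most an estimated 4 and 8 fragments per library. The level of Spint2 in B117H was 447% of that in B117P with a counting interval of 45.1% to 22446%, so no difference, and no opposite direction, is shown for Spint2. The log2 ratio of Serpinb1a was -1.44 in B117 and 0.44 in B140, with an estimated 536 fragments or more in every library. None of these differences between lineages was tested, since each has 1 library per line.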

How the results depend on the processing

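No paired analysis was possible because each line has 1 library, and a fit over both lineages was not made since the values of lineage B140 chose the genes. In lineage B117, 2 of the 5 genes tested passed the 2-fold rule, against 4.62% of all expressed genes. With a pseudocount of 0.1 it was 4 (1 higher, 3 lower, the rise being Serpinb8 from a level listed at 0 in B117P), against 7.02% of all genes, and with a 4-fold rule 0 of 5, against 1.06%. In lineage B140, 3 of 5 passed, against 3.94% of all expressed genes, and at a minimum mean of 5 FPKM it was 1 of the 3 genes left, against 3.33%. Spint2 and Serpinb8 were chosen by their fall in lineage B140, so nothing is read from the counts there. With the other settings the counts were within 1.5 times of these values. Spint2 and Serpinb8 in lineage B140 were at -6.64 and -5.42 with a pseudocount of 0.1, and at -5.45 and -4.16 with TPM without small RNA genes. No ratio past 2-fold changed sign in any setting. Serpinb1a and Serpinb6a in lineage B117 came to -0.70 and -0.68 after the neighbours' median was subtracted. Levels under about 0.1 FPKM rest on few fragments, and ratios between such levels are not interpretable at this depth.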

Other observations

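A level of 5 FPKM or more in one line with less than 0.5 FPKM in each of the other 3 was rare. Apart from small RNA genes, 5 of 21889 listed genes had it for B140P (0.0228%), and they were Spint2, E130012A19Rik, Serpinb8, Amd1 and Sfmbt2. For B117P, B117H and B140H the numbers were 6, 5 and 1. These thresholds were set after the values of Spint2 and Serpinb8 were seen, so the presence of that pair is no finding.

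Near the inhibitor genes, 2 expressed neighbours rose past 2-fold in B140H. They were 1 of the 20 around Serpinb8 and 1 of the 20 around the chromosome 13 serpins, where 2.31% of all expressed genes rose. Other neighbours were higher in B140H by less than 2-fold. Bcl2, the anti-apoptotic gene 875.7 kb from Serpinb8, was at 8.68 FPKM in B140P and 21.7 in B140H, and at 50.3 and 50.1 in the B117 lines. Tubb2a, a beta-tubulin gene beside the chromosome 13 serpins, was at 1.57 FPKM in B140P and 10.5 in B140H, and at 15.6 and 11.1 in the B117 lines. Both were named after their values were seen, and sharing of reads between Tubb2a and its paralog Tubb2b was not tested. Tubb2b was at 6.68 and 6.50 FPKM in lineage B140.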
